A study of Crinum x powellii with 21 samples.

Results

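Leaves of Crinum x powellii 'Album' were compared with bulbs of the same plant material. The comparison holds the 3 libraries titled as leaves and the 3 titled as bulb, 6 of the 21 RNA-seq libraries of the series. All 6 were made from polyadenylated RNA of the genotype labelled var Album. The bulbs came from a commercial supplier and spent 4 weeks at 4 °C and a further 24 h at room temperature before the organs were taken and flash frozen. RNA of both organs was isolated in a CTAB buffer. The labels do not say which plant gave which library, so the p-values measure only the spread between these libraries, which may be technical. The other libraries come from root (n = 2), basal plate (a compressed stem that carries the scales, n = 2) and callus grown from bulb scales (n = 11), and serve here only to place the leaf and bulb features.

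A bulb is a storage organ built of fleshy scales, which are modified leaf bases packed around the bud, whereas the green leaf blade carries out photosynthesis. Scales of this plant family store starch and other carbohydrates, and the family is known for its alkaloids. The measured features are the genes of an assembled transcriptome and carry assembler identifiers. The files do not pair these with gene names, so the organ labels could not be set against marker genes and no function is given for any feature. In bulk tissue, fewer cells of a type and less RNA per cell cannot be told apart.

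The estimated counts added up to 31524940, 38311065 and 67502918 in leaves and to 39805361, 29530840 and 41784168 in bulb. Pearson correlations of log2(CPM + 1), where CPM is a library's counts scaled to a common total, ran across tested features from 0.981 to 0.991 within leaves and from 0.992 to 0.993 within bulb, against 0.882 to 0.906 between a leaf and a bulb library. Features are not independent replicates, and these values are a description. On the leading principal component, which held 82.0% of the variance, leaves lay between -251.4 and -238.6 and bulbs between 194.0 and 301.3. No pair of replicates agreed within counting noise (chi-square of at least 7.93 per feature), so none was taken for a library deposited more than once. This does not show that they came from separate plants.

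Expression differed between the organs for most of the features with enough counts to be tested, which were 70568 of the 676992 assembled. Of these 70568, 44849 (63.6%) were called, meaning past an FDR of 0.05 in edgeR's quasi-likelihood test. Leaves were higher in 25357 of them (35.9% of those tested) and lower in 19492 (27.6%). Without the filter, 51448 of 437643 features with a count were called. In a fit over all 10 organ libraries, 42445 of 100919 tested features were called. The features that were lower in leaves were mostly abundant ones, while those that were higher in leaves were mostly weak. In leaves the median feature of the higher set had 1.11 TPM and in bulb 0.135 TPM. The median feature of the lower set had 7.02 TPM in leaves and 12.0 TPM in bulb.

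How many features count as lower in leaves depended on the scaling. TMM, which scales libraries on the assumption that most features do not shift, gave the numbers above. Most tested features were called here, and whether the assumption holds was not tested. The median log2 fold change under TMM was 0.38 over all tested features. With library totals alone the median was 0.96, and 35991 features were called higher and 11908 lower in leaves. The share of calls that were higher in leaves was thus 56.5% under TMM, 56.5% under RLE factors, 75.1% under library totals and, on log2(TPM + 1) in limma, 76.5%. Called in the same direction under TMM, RLE and library totals were 25171 features (35.7% of those tested) on the side higher in leaves and 11908 (16.9%) on the lower side. A further 7575 features were lower in leaves under TMM and not called under library totals, and 9 changed direction between these scalings.

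Sorting the tested features by their mean TPM over the 6 libraries gave a continuous order. The count filter can admit a weak feature through its higher organ alone, so the called shares at the lowest levels may depend on it. The part of the filter was not tested. Among the 9871 features under 0.3 TPM, 60.8% were higher and 4.02% lower in leaves. From 0.3 to 1 TPM these shares were 50.2% and 9.60%, and from 1 to 3 TPM they were 35.4% and 21.7%. Between 3 and 10 TPM the lower side became the larger, with 22.3% higher and 38.2% lower. From 10 to 30 TPM, 14.6% were higher and 56.8% lower in leaves. Of the 1573 features over 100 TPM, 7.37% (116 features) were higher and 77.6% (1221) lower. In a fit over all 10 organ libraries fewer abundant features were called higher in leaves, with 58 over 100 TPM, 283 at 30 to 100 TPM, 773 at 10 to 30 TPM and 1735 at 3 to 10 TPM. The fit to the 6 libraries had called 116, 472, 1293 and 2654 there.

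The order along the levels did not depend on the scaling, but the crossing point did. Under library totals, 75.4% of the features under 0.3 TPM were higher and 3.04% lower in leaves, against 18.6% and 53.1% of those over 100 TPM. Between 3 and 10 TPM, library totals put 37.7% on the higher and 21.5% on the lower side, the opposite majority to TMM, and from 10 to 30 TPM both sides were close at 31.7% and 31.9%. The median log2 fold change ran from 1.90 under 0.3 TPM to -0.96 over 100 TPM with TMM, and from 2.46 to -0.37 with library totals.

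**Figure D1:**
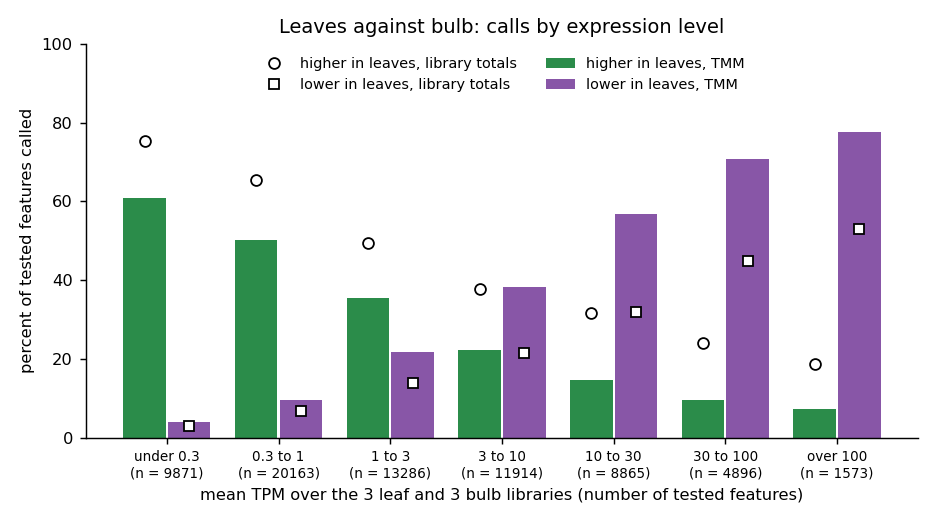
Percent of tested features called higher (green) or lower (purple) in leaves than in bulb, by mean TPM over the 6 libraries; bars use TMM and open symbols library totals. With TMM the higher side falls from 60.8% under 0.3 TPM to 7.37% over 100 TPM, while the lower side reaches 77.6%.

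Large differences were found on both sides. At least 2-fold changes were called in 23015 features that were higher (32.6% of those tested) and 13559 that were lower in leaves (19.2%). At least 16-fold changes were fitted for 3110 features on the higher (4.41%) and 1884 on the lower side (2.67%). Of the 3110, 985 had 0 counts in every bulb library, and with these at the bound that 3 counts over the group allow, 2476 remained past 16-fold. Of the 1884, 404 had 0 counts in every leaf library, and with these at their bound all 1884 remained. Fitted log2 changes of at least 8 in size numbered 193 on the higher (0.273%) and 388 on the lower side (0.55%). Of these, 178 and 268 had 0 counts in every library of the lower organ. With those at their bound, only 18 and 162 features remained past this size. Counted this way, the largest changes were mostly on the lower side. The bounds were not equal, as 3 counts stood for 0.0182 TMM-scaled CPM in leaves and 0.0331 in bulb. A feature absent from bulb thus needed a higher level to pass than one absent from leaves.

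A stricter set asked for no overlap between leaf and bulb libraries and for 10 CPM or more throughout the organ with the higher level. Of these called features, 1993 were higher in leaves (2.82% of those tested) and 9745 were lower (13.8%). With library totals in place of TMM these numbers were 4704 and 5649.

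The largest rise by amount was that of Crpow_TRINITY_DN1738_c0_g1, the most abundant of the features called higher in leaves. It took 1.19%, 1.53% and 2.94% of the counts of the 3 leaf libraries, against 0.445%, 0.760% and 0.623% of the 3 bulb libraries. No overlap between the organs was a condition for naming it, as was a call. By share, leaf replicate 3 held more than the other leaf libraries together. On TMM-scaled CPM it averaged 15712 ± 7650 in leaves and 7518 ± 2035 in bulb (SD, n = 3 each), a log2 fold change of 1.06 (standard error 0.28), at an adjusted p of 0.00468 by edgeR's quasi-likelihood test. Without leaves replicate 3 the log2 fold change was 0.60 with an adjusted p of 0.0213 (edgeR), and under library totals it was 1.65. Its 2 isoforms kept their proportion, the leading one holding 57.7% of its counts in leaves and 58.3% in bulb.

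A second feature of the same assembler cluster as Crpow_TRINITY_DN1738_c0_g1 moved likewise, with 5661, 6980 and 11730 CPM in leaves and 2444, 3874 and 3467 CPM in bulb. Its log2 fold change was 0.75 with an adjusted p of 0.0136 (edgeR). Features of a cluster can be copies, alleles or fragments of a gene among which reads are divided, so the level of either is uncertain. Outside leaves and bulb, Crpow_TRINITY_DN1738_c0_g1 took 0.580% and 0.654% of the root libraries, 0.810% and 0.809% of the basal plate libraries and between 0.465% and 1.17% of the callus libraries. No library outside leaves reached the 1.19% of the lowest leaf library.

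The largest fall by amount was that of Crpow_TRINITY_DN167_c0_g1. It had 70.5, 54.6 and 64.5 CPM in leaves, against 2564, 2524 and 1835 CPM in bulb. It was chosen for the size of its difference among called features without overlap between the organs, so the gap is a description. On TMM-scaled CPM it averaged 52.8 ± 7.67 in leaves and 2862 ± 616 in bulb (SD, n = 3 each), a 54.2-fold lower level in leaves. By library totals the level in leaves was 36.5-fold lower, and the log2 fold change was -5.17 on that scale and -6.49 by salmon. The gap was wider by TPM, with 72.28, 55.05 and 55.36 in leaves and 6579, 6344 and 4711 in bulb. In edgeR the log2 fold change came to -5.76 (standard error 0.21), at an adjusted p of 8.56e-11. It was assembled into 9 isoforms, and the isoform that led in bulb held 8.26% of its counts in leaves and 49.8% in bulb. Summed counts thus mix isoforms in other proportions in each organ, and the part of this in the fold was not tested.

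Elsewhere Crpow_TRINITY_DN167_c0_g1 did not follow a simple divide between organs and callus. It had 92.2 and 197.9 CPM in root and 321.2 and 281.3 CPM in the basal plate. Callus grown with 14 h of light per day and 2 mg/L of the synthetic auxin 2,4-D, a dose that the sample titles write as 3, had 1642, 854 and 1187 CPM, the nearest to bulb. The 8 other callus libraries, in light with 4 mg/L or in darkness with either dose, had 42.4 to 69.4 CPM, close to the leaf values.

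Crpow_TRINITY_DN3498_c0_g1 was the strongest of the features found in leaves and not in bulb. It had 610.2, 317.4 and 722.1 CPM in leaves and 0 counts in each bulb library. The 0 counts and the call were conditions of its choice, so its fold and adjusted p are a description. Counted against the floor of 3 counts over the 3 bulb libraries, its level in leaves was at least 13883-fold higher on TMM-scaled CPM and at least 20367-fold higher by library totals, with an adjusted p of 5.22e-10 (edgeR). Root and basal plate held at most 0.428 CPM of it, and callus between 0.423 and 13.7 CPM, with its highest values in light with 4 mg/L.

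Crpow_TRINITY_DN9770_c0_g1 was its counterpart in bulb. It had 0 counts in each leaf library and 96.2, 121.5 and 126.5 CPM in bulb. Here too, the 0 counts and the call were conditions of the choice. Against the same kind of floor its level in leaves was at least 7763-fold lower on TMM-scaled CPM and at least 5252-fold lower by library totals, with an adjusted p of 1.34e-11 (edgeR). Root lacked it as well, with 0 counts in both libraries, and the basal plate had 6.47 and 0.321 CPM. Callus in light with 2 mg/L of 2,4-D had 15.3 to 20.3 CPM, and the 8 other callus libraries at most 0.375 CPM. Both Crpow_TRINITY_DN9770_c0_g1 and Crpow_TRINITY_DN167_c0_g1 were thus high in bulb and, among callus, highest in light with 2 mg/L.

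**Figure D2:**
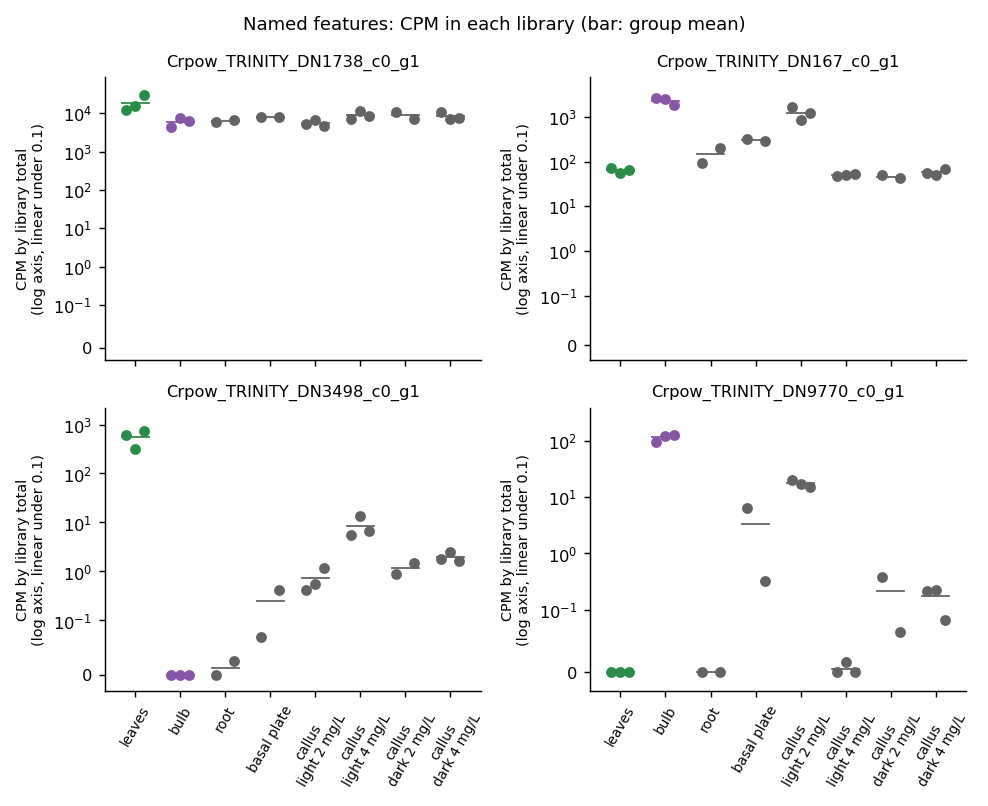
CPM by library total of the 4 named features in each of the 21 libraries, on a log axis that is linear under 0.1 CPM; points are libraries and bars group means, with leaves in green, bulb in purple and the other groups in grey. Crpow_TRINITY_DN3498_c0_g1 lies at 317.4 CPM or more in leaves and at 0 in bulb, and Crpow_TRINITY_DN9770_c0_g1 at 0 in leaves and at 96.2 CPM or more in bulb.

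The shares of the libraries taken by called features showed how large the exchange between the organs was. Features called higher in leaves took 22.7%, 21.7% and 27.0% of the counts in leaves, against 6.81%, 6.80% and 7.86% in bulb. Features called lower in leaves took 48.3%, 48.1% and 44.8% in leaves, against 73.7%, 75.0% and 71.8% in bulb. The means were 23.8% ± 2.83 in leaves and 7.16% ± 0.609 in bulb for the higher set, and 47.0% ± 1.95 in leaves and 73.5% ± 1.62 in bulb for the lower set (SD, n = 3 each). The calls were made on these same libraries, so the gap is a description and was not tested. With calls under library totals, an alternative added after seeing the data, the higher set took 45.9% of the leaf and 21.8% of the bulb counts, and the lower set 23.7% and 48.9%.

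Between a leaf and a bulb library, 25.3% to 31.7% of the counts would have to be moved to other features to make both alike (9 pairs, median 28.4%). Within leaves this measure was 9.04% to 14.0% and within bulb 6.08% to 7.10% (3 pairs each). Pairs share libraries and were not tested.

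Among features called under TMM, those of the higher set were the more concentrated. In the higher set, 347 of 25357 features (1.37%) held 50% of its leaf counts, and the leading feature alone took 1.89% of all leaf counts. The 10 leading features took 4.46% and the 100 leading features 8.11%. In the lower set, 1322 of 19492 features (6.78%) held 50% of its bulb counts, the leading feature took 0.285% of all bulb counts, the 10 leading features 2.10% and the 100 leading features 9.47%. A different measure, the difference of the mean profiles over all features, called or not, gave no single order. Of the 27.4 percentage points by which these profiles differed, 50% was held on the leaf side by 959 features. The leaf side had 353135 features with a larger share in leaves. On the bulb side 809 of 84508 features held 50%. The 1000 leading features held 13.9 points on the leaf side and 14.9 on the bulb side, and the 10 leading features 3.06 and 1.47 points. Without Crpow_TRINITY_DN1738_c0_g1 the higher set still took 21.5%, 20.2% and 24.1% of the leaf counts, against 6.36%, 6.04% and 7.23% of the bulb counts.

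The sets were chosen for their difference between leaves and bulb, so a place between both organs is what this choice favours for any other tissue, and it is given here as a description. Features called higher in leaves took 9.47% and 8.66% of the root libraries, 12.9% and 13.1% of the basal plate, 12.7% to 15.1% of the 6 light-grown and 15.5% to 18.2% of the 5 dark-grown callus libraries. None of these reached the leaf values and all exceeded the bulb values. Features called lower in leaves took 68.8% and 71.0% of root, 61.9% and 54.7% of the basal plate, 59.4% to 63.7% of light-grown and 52.2% to 57.7% of dark-grown callus. Dark-grown callus thus lay nearer to leaves than light-grown callus on both measures, with no overlap between them. A column kit served for callus RNA and the CTAB buffer for organ RNA, so tissue and method cannot be told apart there. In basal plate replicate 2, 10.9% of the counts fell on features outside the leaf and bulb test, against 0.626% to 6.76% in the other 20 libraries.

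**Figure D3:**
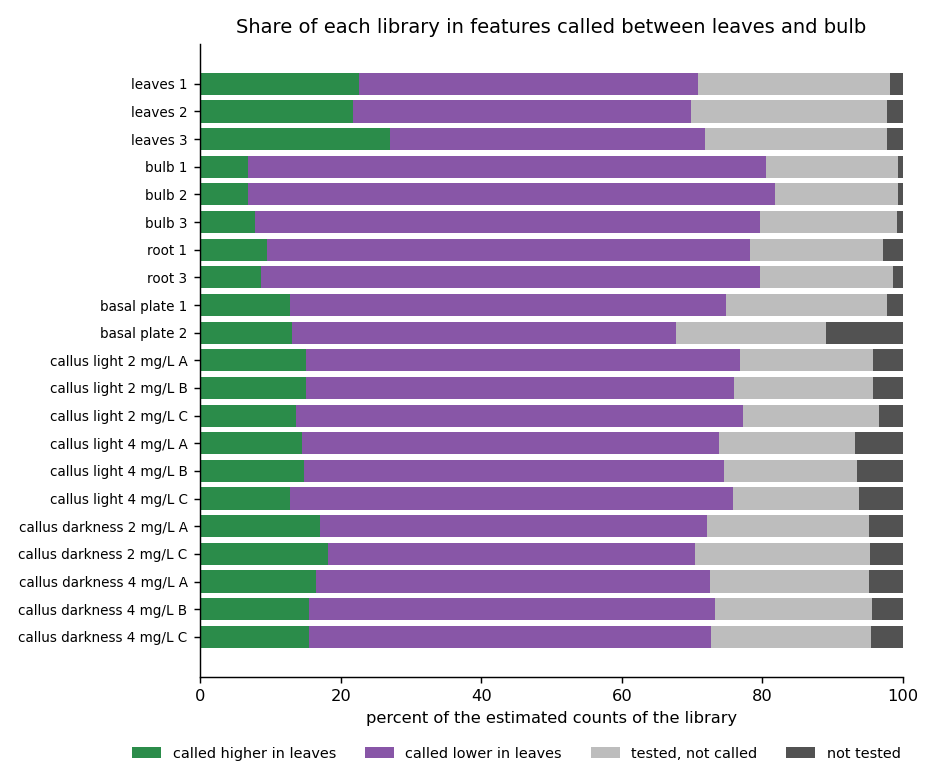
Share of the estimated counts of each of the 21 libraries in features called higher in leaves (green), called lower in leaves (purple), tested and not called (light grey) and not tested (dark grey). The green share is 21.7% to 27.0% in leaves and 6.80% to 7.86% in bulb, and all other libraries lie between.

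Leaf libraries also held more features above a low threshold. At least 1 CPM by library total was reached by 36988, 39096 and 38337 features in leaves, against 28780, 28677 and 30495 in bulb. Numbers on TMM-scaled CPM, which lowers leaf and raises bulb levels here, are not given. The means were 38140 ± 1068 in leaves and 29317 ± 1021 in bulb (SD, n = 3 each), a difference of 8823. The exact two-sided permutation test gave p = 0.1 (adjusted p = 0.1 over 2 tests), the smallest that 3 against 3 libraries can give, so the threshold of 0.05 was out of reach. The difference was 8942 with every library thinned to the lowest total, 20836 at a threshold of 1 TPM and 56151 at 0.1 CPM. At 10 CPM it was 236 with an exact permutation p of 0.2, so the excess lay among weak features.

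The upper end of the libraries differed less. The 100 most abundant features of each library took 13.3%, 14.96% and 15.2% of the counts in leaves, against 12.1%, 12.3% and 11.9% in bulb. The difference of the means was 2.40 percentage points with an exact permutation p of 0.1 (adjusted p = 0.1). For the 10 most abundant the shares were 4.33%, 5.30% and 7.02% in leaves and 2.70%, 3.17% and 2.97% in bulb. The direction did not hold on other scales: for the 1000 most abundant features leaves were lower by 0.83 percentage points, and by TPM the 100 most abundant were lower by 0.75 points. The number of features that hold 50% of the counts was 2124, 1977 and 2163 in leaves and 1856, 1851 and 1978 in bulb, with leaf replicate 2 just under bulb replicate 3.

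**Figure D4:**
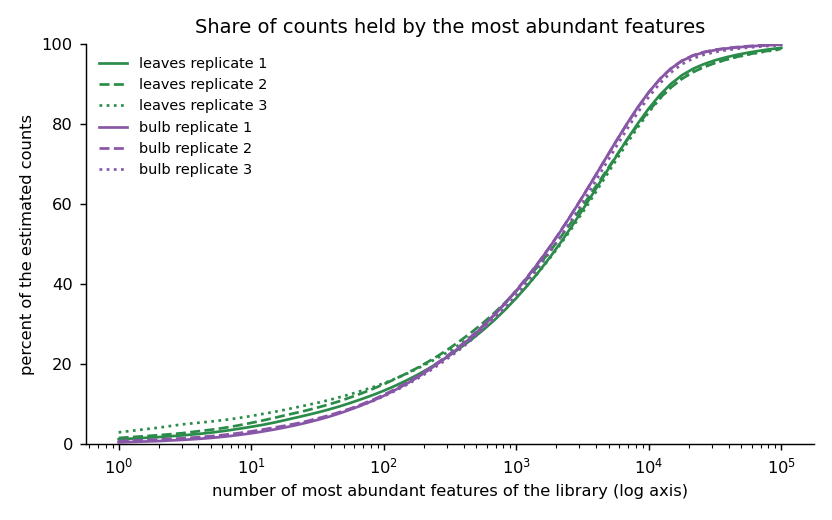
Percent of the estimated counts held by the most abundant features of each leaf (green) and bulb (purple) library, by number of features on a log axis. Leaves lie higher up to about 100 features (13.3% to 15.2%, against 11.9% to 12.3% in bulb) and lower beyond 10000 features, where their curves keep rising.

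Presence in a single organ was rare. At least 1 CPM in all 3 libraries of an organ was reached by 33051 features in leaves and 26706 in bulb, together 36050, of which 23707 (65.8%) reached it in both organs. Another 6588 (18.3%) reached it in leaves and stayed under 1 CPM in every bulb library, and 1736 (4.82%) did so the other way round. These numbers use CPM by library total. TMM factors were 1.195 to 1.246 in leaves and 0.793 to 0.861 in bulb. TMM scaling would thus lower leaf and raise bulb levels against this threshold, and numbers on that scale are not given. With 0 counts demanded in the other organ, 75 features were present in leaves only (0.227% of the 33051) and 112 in bulb only (0.419% of the 26706). By library totals, a count of 0 over the 3 leaf libraries allows up to 0.0218 CPM, and over the 3 bulb libraries up to 0.027 CPM. On TMM-scaled CPM these floors were 0.0182 in leaves and 0.0331 in bulb. Most features that fell under 1 CPM in the other organ were still seen there: 6263 of those present in leaves had 0.1 to 1 CPM in their highest bulb library, and 1432 of those present in bulb had as much in their highest leaf library.

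The 75 leaf-only and 112 bulb-only features were mostly weak. Their median level in their own organ was 3.11 TPM in leaves for the 75 and 6.09 TPM in bulb for the 112. Only 2 of the 75 and 14 of the 112 had at least 10 CPM in every library of their organ. The leaf-only features took 0.0987%, 0.0539% and 0.111% of the leaf libraries, most of it Crpow_TRINITY_DN3498_c0_g1, and the bulb-only features took 0.0725%, 0.0944% and 0.0923% of the bulb libraries.

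The number of these features moved most with the thresholds and on isoforms. Leaf-only and bulb-only features numbered 2 and 14 at 10 CPM for present, and 325 and 304 with under 0.1 CPM for absent. Among isoforms the numbers were 452 and 393. Thinned to equal depth, the counts were 84 in leaves only and 128 in bulb only, with 72 and 108 features shared with the sets above. By salmon they were 60 and 103, with 47 and 89 shared. Without bulb replicate 3 the leaf-only set grew to 173 and without leaves replicate 2 to 131, and without leaves replicate 3 the bulb-only set grew to 170. Another feature of the same assembler cluster was present in the other organ for 8 of the 75 (10.7%) and 9 of the 112 (8.04%). Among all features present in leaves or in bulb this share was 15.01% and 18.4%.

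The other tissues played no part in the choice of these sets. Of the 75 leaf-only features, 3 and 5 reached 1 CPM in the root libraries and 6 in each basal plate library, and 63 stayed under 1 CPM in all 4 of these. Of the 112 bulb-only features, 51 and 59 reached 1 CPM in root and 60 and 63 in the basal plate, and 27 stayed under 1 CPM in all 4. In each of the 11 callus libraries, 16 to 22 of the 75 leaf-only features had 1 CPM or more. Bulb-only features numbered 27 to 40 of 112 in light-grown and 17 to 25 in dark-grown callus. Among all features present in leaves, 74.8% to 89.9% reached 1 CPM in the root and basal plate libraries and 80.0% to 88.9% in callus. Among all features present in bulb these shares were 94.3% to 96.2% and 90.3% to 92.1%. Under 1 CPM in all 15 other libraries were 36 of the 75 and 21 of the 112. The difference between the sets was not tested.

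**Figure D5:**
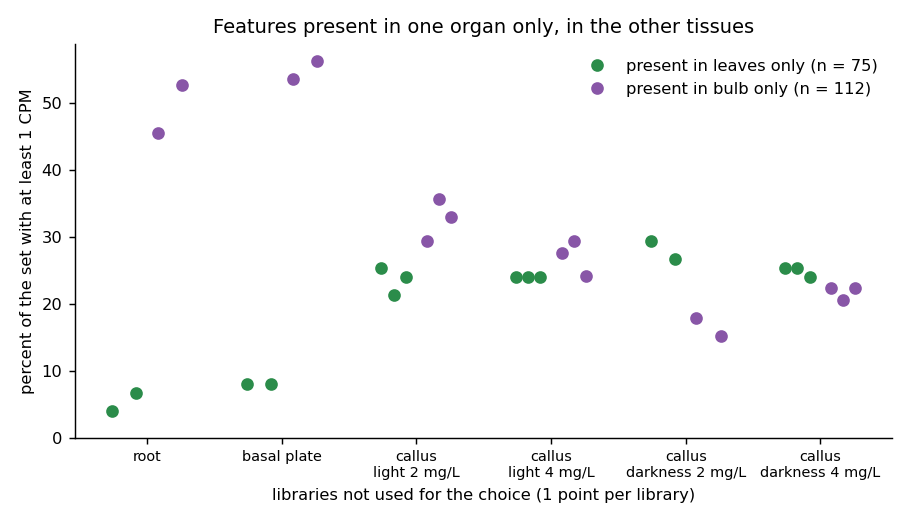
Percent of the 75 leaf-only (green) and 112 bulb-only (purple) features with at least 1 CPM in each root, basal plate and callus library. Bulb-only features reach 45.5% to 56.3% in root and basal plate and leaf-only features 4.00% to 8.00%. In callus the ranges overlap, with 21.3% to 29.3% for leaf-only and 15.2% to 35.7% for bulb-only features.

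Called features also differed in length and in number of isoforms. The median relative length was 0.36 higher on the log2 scale than that of all tested features for those higher in leaves, and it was -0.18 for those lower in leaves and -0.28 for those not called. Since a weak feature passes a filter on counts more easily when it is long, these values are also given at matched levels. Between 0.3 and 1 TPM they were 0.18, -0.26 and -0.20 for features higher in leaves, lower in leaves and not called. Between 10 and 30 TPM they were 0.34, 0.08 and -0.35 for these sets, and over 100 TPM -0.46, -0.39 and -0.48. In the same order they were 0.90, 0.47 and 0.74 under 0.3 TPM and -0.18, -0.58 and -1.09 from 1 to 3 TPM. From 3 to 10 TPM they were -0.03, -0.38 and -1.53, and from 30 to 100 TPM 0.125, -0.009 and 0.069. Features higher in leaves were thus the longest set at every level up to 100 TPM, but not over it. The order of the remaining sets changed with the level. A single isoform was assembled for 38.3% of the features higher in leaves, 28.0% of those lower in leaves and 37.0% of those not called. The part of length in the calls was not tested.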

How the data were processed

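The authors deposited estimated counts per isoform and TPM (a level per transcript length, scaled to a common total) per isoform and per gene. The submitters' processing notes list fastp 0.23.4, kallisto 0.46.1 and Salmon 1.4.0 without their roles. The tables that are not named after salmon were used as the main source and are taken to be those of kallisto. Settings and assembly version are not given in the sources used here. In the deposited gene table named as counts, 100% of the values equalled rescaled TPM within 1% plus 0.02 counts, a score rather than a count per gene. Estimated counts were therefore summed over the isoforms of a feature and rounded.

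The 3 leaf and 3 bulb libraries were compared with edgeR 4.0.16 in R 4.3.3 (quasi-likelihood F test, TMM scaling, filterByExpr, Benjamini-Hochberg adjustment, FDR under 0.05). Single values per library were compared with an exact two-sided permutation test. Alternatives used DESeq2 1.42.0, limma 3.58.1, other scalings, filters, quantifiers and sets of libraries. The procedure was also run on simulated counts in which few features changed, as many up as down. Most tested features were called in the real comparison, so that run cannot judge the scaling or the balance of directions here. Relative lengths were taken from the ratio of estimated count to TPM of the leading isoform of a feature. Counting intervals and floors cover counting error only.

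In each direction 2 features are named: the one with the largest difference of mean TMM-scaled CPM among called features whose leaf and bulb libraries do not overlap and reach 10 CPM throughout the organ with the higher level, and the one with the highest lowest-library CPM among those present in a single organ. The comparison and the lists were chosen with earlier results of these data known.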

Additional observations from a re-analysis of the deposited data

How the results depend on the processing

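The 4 named features, chosen among the called ones, were followed through part of the alternatives. These were RLE factors, library totals, all 10 organ libraries, salmon, DESeq2, a replicate block and 1 library left out. There they kept their direction and stayed past the threshold. Log2 fold changes were 0.60 to 1.65 for Crpow_TRINITY_DN1738_c0_g1 and -6.49 to -5.17 for Crpow_TRINITY_DN167_c0_g1. Fitted changes of the other 2, which have 0 counts in an organ, depend on the prior count and are not given. The count of called features, 44849 of 70568 tested, was 42445 of 100919 with all 10 organ libraries. It was 43451 of 70568 by DESeq2, 55332 of 88368 by salmon and 52013 of 121942 on isoforms. Most tested features were thus not called with all 10 organ libraries, on isoforms or without the filter. The count moved by over 1.5 times with at least 1 CPM in 3 libraries alone. There 36748 features were tested, with 26337 called, 13856 higher, 12481 lower and 17471 changed 2-fold. Lower in leaves were 11908 under library totals, 11410 on log2(TPM + 1) in limma, which left 15689 changed 2-fold, and 11253 on log2(TPM + 0.1). The limma fits, like those under library totals, used no TMM or RLE factors. Among these settings, fewer features were tested only with at least 1 CPM in 3 libraries. The cause of these shifts was not tested. Deviations of same-numbered leaf and bulb libraries correlated at 0.02, -0.06 and -0.00035, and those of differently numbered ones at -0.09 to 0.08. Such values cannot tell whether same-numbered libraries share a plant. With a replicate block 40243 features were called. With 1 library left out, the counts ran from 40438 to 48818 called, 21692 to 29445 higher, 18746 to 20606 lower and 33703 to 42402 changed 2-fold, the difference in features with 1 CPM from 8345 to 9412 and that of the 100 most abundant from 2.05 to 2.98 points. That difference was -0.83 for the 1000 most abundant and -0.75 by TPM. Leaf-only and bulb-only features numbered 2 and 14 at 10 CPM, 325 and 304 with under 0.1 CPM for absent, 452 and 393 on isoforms, and 83 to 173 and 115 to 170 with 1 library left out. The higher set took 19.9% of leaf and 5.37% of bulb counts by salmon, 18.5% and 4.89% by TPM, 45.9% and 21.8% under library totals, and 19.3% to 23.8% and 5.01% to 7.25% with 1 library left out of the calls. The lower set took 51.6% and 77.0% by salmon, 23.7% and 48.9% under library totals, and 43.2% to 48.6% and 70.05% to 74.7% with 1 library left out. The alternatives for levels, scalings in common and shares under library totals or with a library left out were chosen after seeing the data. Depth limits the weakest features and those called absent.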
